A study of Homo sapiens with 4 samples.

Results

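SUP-B15 is a human B precursor acute lymphoblastic leukemia line that carries the Philadelphia chromosome, and its response to the kinase inhibitor STI571 was read from 2 of the 4 arrays of the series. One array held total RNA of SUP-B15 cells cultured without STI571, and the other held total RNA of SUP-B15 cells kept in 10 μmol/l STI571 for 16 h. The other 2 arrays held BV-173, a second line with the Philadelphia chromosome, cultured without the drug and in the same dose for the same time. They are used only where the SUP-B15 values are set beside them. Each group was 1 array, the labels name no repeat cultures, and both lines are long-term cultures, so each change below is a difference between 2 arrays with no replicate check and no p-value. The values cover all non-control probe sets that name 1 gene symbol, which were 19064 of the 22277 on the array. For 11963 genes these held at least 1 probe set, and 7916 genes had a probe set at or above its array's median signal in at least 1 of the 4 arrays and were compared.

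The Philadelphia chromosome joins BCR to the ABL1 kinase gene, and SUP-B15 is known to carry the shorter form of the fusion protein that is typical of acute lymphoblastic leukemia. The fusion kinase drives the RAS and ERK cascade, STAT5, and PI3K with AKT, which holds FOXO factors out of the nucleus. STI571 (imatinib) occupies the ATP pocket of ABL1 and so shuts off these branches. ERK switches on its own inhibitors, the DUSP phosphatases and SPRY proteins, and their transcripts are widely used as a readout of ERK activity. In normal pre-B cells, loss of growth signalling lets FOXO factors turn on genes of light chain recombination and raises BCL6, a transcriptional repressor.

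Values are the deposited signals, and a change is log2(signal + 24.5) in the treated array minus the same in the untreated array, where 24.5 is the 25th percentile of all signals. The added value shrinks changes of dim genes. The median signal was 115 in the untreated and 106.6 in the treated SUP-B15 array, and the signals of all 22277 probe sets correlated at r = 0.952 between them, as a description across probe sets. The ratio of the probe sets at the ends of the GAPDH transcript, a reading of RNA integrity, was 1.12 untreated and 1.19 treated. For ACTB the same ratio was larger and moved the other way, at 2.40 untreated and 2.08 treated. Of the 10 B precursor markers, 8 had a probe set, and all 8 were above the array's median in both arrays, with a summed signal of 58730 untreated and 80720 treated. The other marker lists summed to far less. T cell markers summed to 584.7 untreated and 521.7 treated, with 1 of 9 above the median in each array. Monocyte and granulocyte markers gave 511.3 and 428.1, NK cell markers 518.9 and 331.5, and erythroid and megakaryocyte markers 178.5 and 159.8. Fibroblast markers gave 1124 and 721.7, most of it from THY1 at 764 and 468. Their part in the results was not tested. In a bulk culture, a shift in the share of cells of one kind and a change of RNA within cells cannot be told apart.

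After STI571, 323 of the 7916 genes (4.08%) were at least 2-fold higher and 450 (5.68%) at least 2-fold lower, 773 (9.77%) in all. Of these 773, 41.8% were higher, and scaling each array to a common median turned this to 52.6%, since it moved the median change of all genes by 0.10. The median change was -0.01, and 95 in 100 genes lay between -1.46 and 1.21. Of all 7916 genes, 48.6% changed above 0 and 51.3% below. These shares, and the 4.08% at least 2-fold higher and 5.68% lower, are those to set beside the list counts below. The size of a change depended strongly on brightness. Split into 4 equal bins by mean SUP-B15 signal, 27.5% of the 1979 dimmest genes were past 2-fold, against 5.61%, 3.54% and 2.37% in the successively brighter bins. The highest change of all, 3.28 for IKZF2 (the lymphoid zinc finger factor Helios), came from signals of 5.9 and 271.5 on 1 probe set. Of the 3894 genes that reached the 75th percentile of the array in at least 1 SUP-B15 array, here called bright, 69 (1.77%) were at least 2-fold higher and 76 (1.95%) lower. Without the filter on dim signals, 6.37% of the 19064 probe sets were at least 2-fold higher and 8.50% lower.

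**Figure D1:**
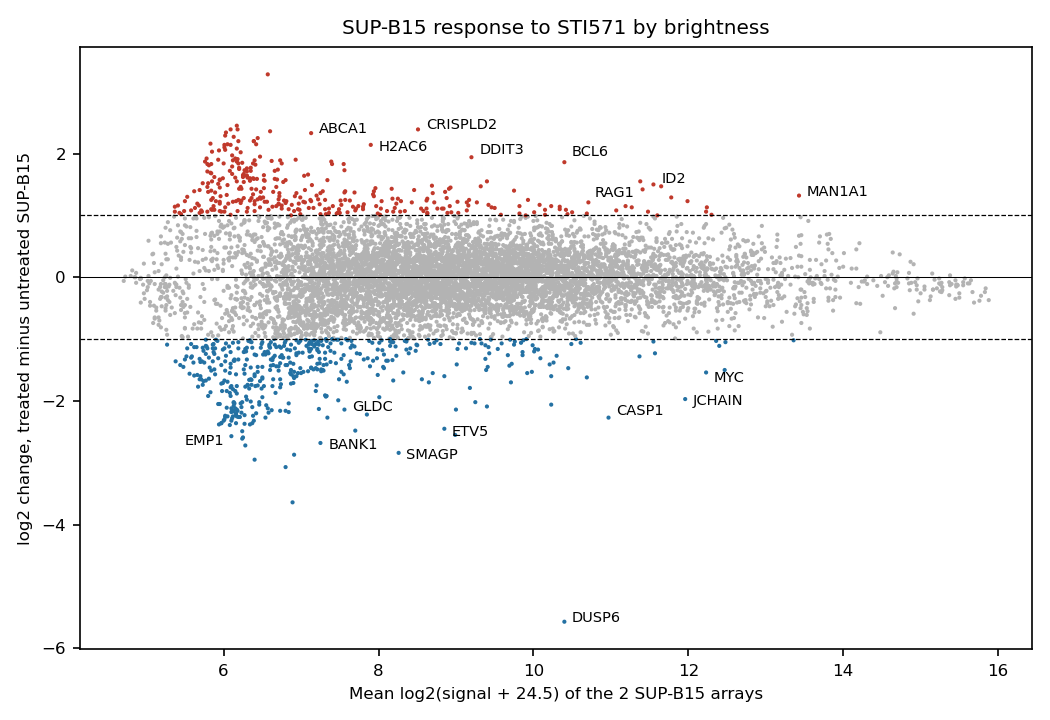
Change after STI571 (log2, vertical) against mean log2(signal + 24.5) of the 2 SUP-B15 arrays (horizontal) for the 7916 genes; red points were at least 2-fold higher, blue points at least 2-fold lower, and dashed lines mark 2-fold. The cloud narrows from left to right, and DUSP6 at -5.57 lies alone below it.

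Several probe sets of a gene give repeat readings of the same RNA. They are not replicates, but they show which changes do not hang on 1 probe set. Of the 2627 genes with at least 2 kept probe sets, 150 were past 2-fold by the brightest one. The second brightest differed in the same direction in 114 of them (76.0%) and passed 2-fold the same way in 44 (29.3%). Among the 61 bright genes of this kind, the direction was shared in 56 (91.8%), and among the 89 others in 58 (65.2%). For the 2115 genes whose brightest probe set changed by under 1.5-fold, 61.7% shared a direction. Every kept probe set was at least 2-fold higher in 16 genes (0.609% of the 2627) and at least 2-fold lower in 22 (0.837%).

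DUSP6, ETV5, CASP1 and IL1B had the lowest mean changes of the 22 lower genes. DUSP6, the cytoplasmic phosphatase that removes the activating phosphates of ERK, read 9305 untreated and 172 treated on its brightest probe set. Its other probe sets read 3651 and 127, and 1725 and 13.4. The 3 changes were -5.57, -4.60 and -5.53, the first a 47.5-fold difference. ETV5, an ETS factor induced by ERK, read 1053 and 173, with changes of -2.45, -2.73 and -3.28 over 3 probe sets. CASP1, the protease that matures interleukin 1 beta, had 5 probe sets, which lay in signal between 1875 and 4374 untreated and between 309 and 887 treated, with changes of -2.09 to -3.17. Its substrate IL1B read 1634 and 540.0 on one probe set and 2105 and 396 on the other, with changes of -1.55 and -2.34. Both genes of this pair were thus lower on every kept probe set.

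The other lower genes were of varied function. SUCLG2, a subunit of the mitochondrial succinate-CoA ligase, changed by -2.02, -1.91 and -1.32. SLC43A3, a nucleobase transporter, changed by -2.09 and -1.79, from a signal of 1368 to 303 on the brightest probe set. SLC2A3, the high-affinity glucose transporter GLUT3, read 688 and 219 (-1.55) and was also at least 2-fold lower on its other 2 kept probe sets. RAC2, a small GTPase of blood cells, read 2427 and 565 on one probe set and 508 and 143 on the other. ITGA6, the integrin alpha chain that binds laminin, read 1054 and 287. SYPL1, a vesicle membrane protein, read 2063 and 666, and MAF, a leucine zipper factor, 1103 and 388, with a second probe set at -1.60. The remaining ones were SLAMF8, SFTPC, HMGCS1, TP53I11, DHCR7, LCP2, HBEGF, LILRB3, TBC1D9, EGR1 and RPAIN, of which SLAMF8, TP53I11, SFTPC and EGR1 had the lowest untreated signals, between 90.4 and 134 on the brightest probe set.

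Of the 16 higher genes, 6 were bright, namely ID2, MAN1A1, HPS4, DEPP1, THSD7A and CAP2. ID2, an inhibitor of E proteins, read 1755 and 5006 on one probe set and 352 and 1114 on the other, differences of 2.83-fold and, on the log2 scale, 1.59. MAN1A1, a Golgi mannosidase that trims N-glycans, read 6934 and 17388, and 865 and 2785. HPS4, part of the complex that forms lysosome-related organelles, read 2223 and 5470 on one probe set and 1765 and 4342 on the other, 1.29 on each. DEPP1, a FOXO-induced gene, read 913 and 1977 on its brightest probe set, with changes of 1.09 and 1.04. THSD7A, a membrane protein, read 287.5 and 648 (1.11) and CAP2, which binds actin, 271 and 612 (1.11). The others were ABCA1, RNF19B, DRD2, FAS, MUC3A, ACSM3, DTNA, RGS1, STOML1 and RUBCNL, with untreated signals of their brightest probe sets between 6.1 (DRD2) and 62.6 (RUBCNL), all below the array's median. FAS, the death receptor, read 8.4 and 70.1 on one probe set and 7.2 and 71.6 on the other. Those 2 were kept only because untreated BV-173 read 236 and 205 there. Both ACSM3 probe sets, and the brightest ones of SLAMF8 and TP53I11 among the lower genes, were likewise below the median of both SUP-B15 arrays and kept only through BV-173. DRD2 had 2 further probe sets that were not kept, with changes of -0.46 and -1.04, against the 2.14 and 1.65 of those kept.

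**Figure D2:**
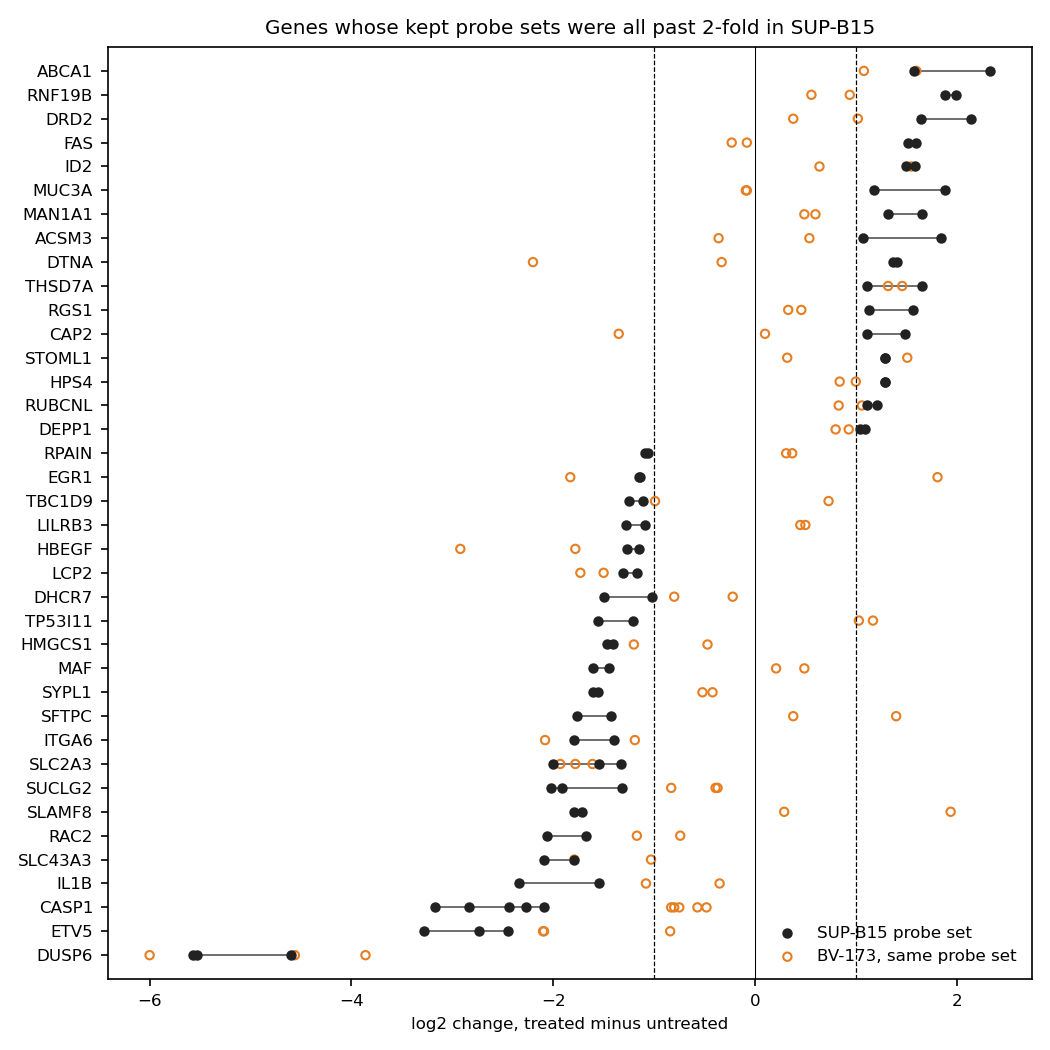
Log2 change of every kept probe set (black, SUP-B15; orange open circles, the same probe sets in BV-173) for the 38 genes whose kept probe sets were all past 2-fold the same way in SUP-B15; dashed lines mark 2-fold. The 5 CASP1 probe sets span -3.17 to -2.09 in SUP-B15.

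Among ERK feedback and immediate early genes, 8 of the 15 compared (53.3%) were at least 2-fold lower, against 5.68% of all genes. Another 1 (6.67%, against 4.08%) was higher, and the median change was -1.14. Beside DUSP6 and ETV5, the lower ones were DUSP2, MYC, SPRY2, DUSP4, IER2 and EGR1. SPRY2, an ERK pathway inhibitor, read 1699 untreated and 571 treated (-1.53). IER2, an immediate early gene, read 1948 and 736 (-1.38). MYC, the growth-driving transcription factor, read 8187 and 2805 on its 1 kept probe set, a 2.90-fold difference. Other immediate early genes lay the other way or near 0. DUSP1, a nuclear MAP kinase phosphatase, changed by 0.24 on its brightest probe set and by -0.25 on another, JUN by 0.36 and JUNB by 0.32. SPRY4, a further inhibitor, was the higher one at 1.38, on signals of 10.1 and 65.3. Both signals were below the array's median, and the SPRY4 probe set was kept only through BV-173. The letters CCGGAA of ETS sites stood in the 250 bases before a start of 3 of the 11 list genes with a RefSeq promoter (27.3%: IER2, SPRY1 and SPRY2) and in 30.4% of the 6549 compared genes with one.

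STAT5 targets split. Of 15 compared, 2 (13.3%, against 4.08% of all genes) were at least 2-fold higher and 4 (26.7%, against 5.68%) lower. The median was -0.03 and turned to 0.08 with arrays scaled to a common median. PIM1, a survival kinase, read 90.6 and 11.6 (-1.67), both below the array's median. CISH, a feedback inhibitor of cytokine receptors, read 158 and 112 (-0.42). SOCS2, a related inhibitor, read 13766 and 13911 (0.02). CCND2, cyclin D2, changed by -1.22, 0.26 and -1.51 over its 3 kept probe sets, so its direction was not shared. LTB, also on this list, read 331 and 64.9 (-1.99). BCL6, which STAT5 is known to repress, was 3.63-fold higher on its brightest probe set and changed by 0.75 on its second. A part of STAT5 in these changes was not tested.

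FOXO targets gave 3 of 19 genes (15.8%, against 4.08% of all genes) at least 2-fold higher and 5 (26.3%, against 5.68%) lower. Their median was 0.28, or -0.08 without the filter on dim signals. BCL6, the repressor of the germinal centre program, read 685 untreated and 2551 treated, and 104.5 and 192 on its second probe set, changes of 1.86 and 0.75. RAG1, a subunit of the V(D)J recombinase, read 1644 and 4440 (1.42), and its partner RAG2 348 and 695 (0.95). CCNG2, a cyclin that restrains the cell cycle, changed by 1.21, 0.98 and 0.97. TXNIP, which inhibits thioredoxin and glucose uptake, lay the other way on each of its 3 probe sets, with 4103 and 1675 on the brightest and changes of -1.28, -0.84 and -1.13. The remaining lower ones were KLF2 (-1.32), BCL2L11 (-1.14), BNIP3 (-1.06) and TRIB1 (-1.43). BCL2L11, at 98.8 and 31.3, was below the median of both SUP-B15 arrays and was kept only through BV-173. CDKN1B, the CDK inhibitor p27, read 3059 and 4198 (0.45). The PI3K subunit PIK3R1 changed by 0.77, 0.75 and 1.15 over 3 kept probe sets, of which the dimmest was past 2-fold, and PIK3CD by 0.85 and 0.27.

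Genes of the pre-B cell receptor and of V(D)J recombination were mostly higher by less than 2-fold. Of 19 compared, 14 changed above 0, against 48.6% of all genes, with a median of 0.37. RAG1, VPREB3 and BLK were at least 2-fold higher (15.8%, against 4.08% of all genes), and BANK1 and IRF8 at least 2-fold lower (10.5%, against 5.68%). VPREB3, which assembles with the pre-B receptor, read 3520 and 7106 (1.01). VPREB1, a surrogate light chain, read 3010 and 3667 (0.28). IGLL1, its partner, changed by 0.37 and IGHM, the mu heavy chain, by 0.69 and 0.44 on its 2 brightest probe sets. BLNK, the adaptor below the receptor, read 12281 and 16793 (0.45), and DNTT, terminal transferase, 22251 and 29317 (0.40). BANK1, a B cell adaptor, read 361 and 35.6 (-2.68), and IRF8 1307 and 633 (-1.02).

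B lineage identity genes gave 1 of 21 at least 2-fold higher and 1 lower, 4.76% each, against 4.08% and 5.68% of all genes. Their median was 0.34, or -0.03 with gene-specific probe sets alone. BACH2, a repressor of plasma cell fate, read 851 and 1908 (1.14). PAX5, the B lineage commitment factor, read 3545 and 6302 (0.83). MME, the surface antigen CD10, changed by 0.98 and 1.11 on 2 probe sets. CD24, a surface antigen, had 6 kept probe sets between 0.15 and 0.96. MS4A1, the antigen CD20, lay the other way, at 209 and 60.0 (-1.47), with -0.87 on a second probe set. CD22 read 712 and 379 (-0.87), with 4 kept probe sets between -1.21 and 0.38. IKZF1, the lymphoid factor Ikaros, had 4 kept probe sets with changes of 0.34, -0.02, 0.08 and 0.54. Among ID and E proteins ID2 was the 1 of 12 past 2-fold. TCF12, an E protein, read 7109 and 11508 (0.69), and MYB 7942 and 15615 (0.97), while ID3 read 6778 and 5532 (-0.29). Of 13 immunoglobulin and plasma cell genes, JCHAIN, the joining chain, was at 7878 untreated and 1996 treated (-1.97), and PRDM1, the plasma cell regulator, at 196 and 74.3 (-1.16). TNFRSF17 was the higher one, at 50.3 and 209.

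**Figure D3:**
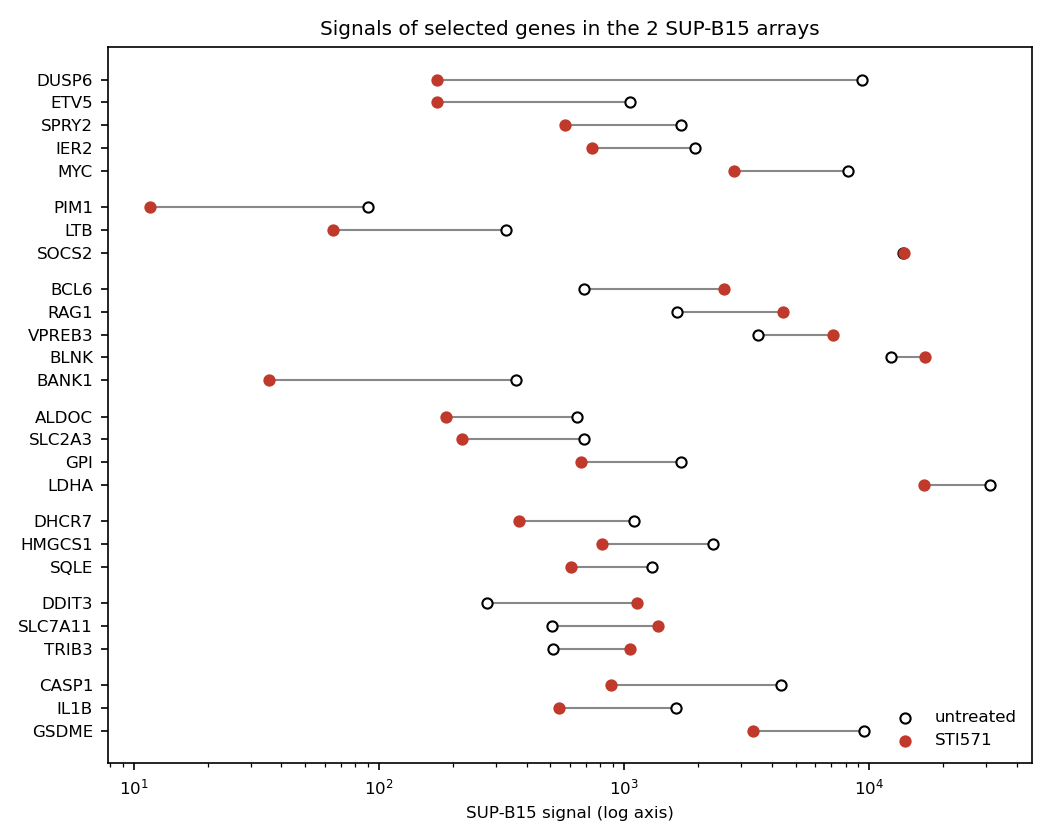
Deposited signal (log axis) of the brightest probe set in the untreated (open circles) and STI571 (red) SUP-B15 arrays for selected genes, grouped from the top as ERK targets, STAT5 targets, B lineage genes, glycolysis, sterol synthesis, amino acid stress and inflammatory death genes. DUSP6 spans from 9305 to 172, while both SOCS2 points overlap.

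Glycolysis genes were lower nearly throughout the pathway. Of 22 compared, 20 changed below 0, against 51.3% of all genes, and the median was -0.68. Past 2-fold lower were 5 (22.7%, against 5.68% of all genes), and none was 2-fold higher. The 5 were ALDOC, SLC2A3, GPI, PFKM and PGK1. GPI, which makes fructose 6-phosphate, read 1698 and 669 (-1.31), and PFKM, a phosphofructokinase, 1391 and 589 (-1.21). PGK1, phosphoglycerate kinase, had 4 kept probe sets at -1.02, -0.94, -0.60 and -0.34, the largest change on the brightest. LDHA, lactate dehydrogenase, read 31049 and 16738 (-0.89), and ENO1, enolase, 16164 and 9069 (-0.83). HK1 at 0.00 and PFKL at 0.13 were the 2 not below 0.

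MYC and related factors bind the E-box CACGTG, which reads alike on both strands. It stood in the 250 bases before a start of 6 of the 21 glycolysis genes with a RefSeq promoter (28.6%: ALDOA, ALDOC, GAPDH, HK2, LDHA and PFKFB3), in 11.7% of compared genes and in 7.73% of all 27305 genes of the promoter table. The share was higher in lists with a median near 0, at 37.5% of repair genes (-0.02) and 33.3% of lysosome genes (0.01). It was 15.8% for ribosome biogenesis genes, 14.2% for genes at least 2-fold lower and 12.5% for those higher. ALDOC, aldolase C, had the most negative change of the list, from 644 to 188 (-1.65). Its window is shown 5′ to 3′ on the minus strand as an example of where the letters lie, chr17:28576896-28577145 in GRCh38.p14, with the E-box, 240 bases before the start, in capitals.
ALDOC: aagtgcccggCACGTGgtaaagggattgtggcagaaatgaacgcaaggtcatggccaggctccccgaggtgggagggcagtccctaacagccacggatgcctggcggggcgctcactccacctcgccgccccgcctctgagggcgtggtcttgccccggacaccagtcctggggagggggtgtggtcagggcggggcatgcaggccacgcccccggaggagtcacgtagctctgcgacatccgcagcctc
A match describes these letters alone and is not evidence of binding.

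Cholesterol and fatty acid synthesis showed 19 of 22 genes below 0, against 51.3% of all genes, with a median of -0.56. The genes at least 2-fold lower were 4 (18.2%, against 5.68% of all genes), and none was at least 2-fold higher. DHCR7, the last enzyme of cholesterol synthesis, read 1101 and 373 on one probe set and 943 and 452 on the other, changes of -1.50 and -1.02. HMGCS1, which makes HMG-CoA, read 2301 and 813 (-1.47), with -1.41 on a second probe set. MSMO1 changed by -1.08 and SQLE, squalene epoxidase, by -1.06, -1.39 and -0.58 over 3 probe sets. INSIG1, the sterol sensor that SREBP induces, was at -0.49, -0.95 and -0.71. MSMO1 and SQLE went just under 2-fold with arrays scaled to a common median. Of 6 sterol efflux genes, ABCA1, the cholesterol exporter, was 5.04-fold higher, from 38 to 290.5, with 1.58 on a second probe set. The sterol element core CACCCCAC, searched on both strands, stood before a start of 1 of the 20 list genes with a promoter (SREBF2) and of 3.11% of compared genes.

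Ribosome biogenesis genes, many of them MYC targets, gave 18 of 22 below 0, against 51.3% of all genes, and a median of -0.43. Only 2 (9.09%, against 5.68% of all genes) were at least 2-fold lower. NCL, nucleolin, read 12123 and 7344 (-0.72), SRM, spermidine synthase, 1636 and 880 (-0.88), and ODC1, ornithine decarboxylase, 7612 and 4770 (-0.67). NME1, a nucleoside diphosphate kinase, was past 2-fold, at 7901 and 3646 (-1.11). RRP12, the other, read 185 and 69.1 (-1.16), but 0.47 on its second kept probe set, so its direction was not shared. Purine, pyrimidine and folate genes followed, with 19 of 21 below 0 and a median of -0.46. NME1 again and GLDC were the 2 (9.52%) at least 2-fold lower. GLDC, the glycine cleavage enzyme, read 372 and 65.4 (-2.14), PFAS, a purine enzyme, 1348 and 709 (-0.90), and CAD, which starts pyrimidine synthesis, 872 and 424, just short of 2-fold. CTPS1, CTP synthase, lay the other way, at 3370 and 5066 (0.58). In the respiratory chain 23 of 25 genes were below 0 and none was past 2-fold, with a median of -0.33 and the lowest value of -0.89 for NDUFA1, a subunit of complex I. Most genes of these lists shared a direction, but a common scaling factor moves all of them together, and medians ranged from -0.33 to -0.20 for the respiratory chain over the processing alternatives.

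Replication and mitosis genes parted. Of 35 replication and G1/S genes, 29 were below 0, against 51.3% of all genes, with a median of -0.33. The 2 at least 2-fold lower made up 5.71%, near the 5.68% of all genes. CDC45, a helicase subunit, read 365 and 128 (-1.35), and GINS2, its partner, 989 and 439 (-1.13). RFC2, a clamp loader subunit, at 1331 and 654 was just short of 2-fold, and MCM4 read 1054 and 531 (-0.96). E2F1 at -0.11 and CCNE1 at -0.08 were near 0, and CDC25A changed by 0.64, with -0.55 on a second probe set. Of 30 mitosis genes, 28 were above 0, against 48.6% of all genes, none past 2-fold, with a median of 0.30. CDK1 read 2084 and 3246 (0.63), TOP2A, topoisomerase, 3395 and 4798 (0.50), and BUB1, a checkpoint kinase, 635 and 1238 (0.94). The direction of BUB1 was not shared by all its kept probe sets, since the others were at 0.83 and, on signals of 80.9 and 18.2, -1.30. MKI67, the proliferation marker, had 4 kept probe sets at 0.50, -0.08, -0.20 and 0.18. Among D-type cyclins, kinases and inhibitors, 2 of 16 (12.5%, against 4.08% of all genes) were 2-fold higher and 3 (18.8%, against 5.68%) lower. CCND3, cyclin D3, read 4335 and 4240 (-0.03) and CDK4 3246 and 2633 (-0.30). CDKN1C was at -2.19 on one dim probe set (179 and 20.2) but at -0.11 on its other kept one.

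E2F factors control many replication genes through the letters TTTGGCGC, TTTCCCGC, TTTCGCGC or TTTGCCGC. On either strand, at least 1 of these stood before a start of 12 of the 31 replication genes with a promoter (38.7%), of 5.97% of compared genes and of 3.40% of all genes of the table. Of those 12, the one with the largest change was GINS2. Its window, chr16:85688955-85689204 in GRCh38.p14, is shown on its own minus strand, with the match 31 bases before the start in capitals, spelled as the other strand of TTTCCCGC.
GINS2: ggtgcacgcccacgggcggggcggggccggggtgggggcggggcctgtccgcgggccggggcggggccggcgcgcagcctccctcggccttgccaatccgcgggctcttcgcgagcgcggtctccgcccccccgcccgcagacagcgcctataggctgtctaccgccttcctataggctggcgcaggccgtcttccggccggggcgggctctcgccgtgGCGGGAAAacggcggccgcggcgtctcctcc
The other 11 changed by between -0.68 (POLA2) and 0.64 (CDC25A). Of the 12, only CDC25A and POLA1 (0.42) were above 0, and a part of E2F factors was not tested.

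Of 27 amino acid stress genes, the targets of ATF4, 24 changed above 0, against 48.6% of all genes, with a median of 0.29. At least 2-fold higher were 3 (11.1%), against 4.08% of all genes, and none was 2-fold lower. DDIT3, the stress factor CHOP, read 276 untreated and 1125 treated (1.94). SLC7A11, the cystine transporter, read 507 and 1373 on one probe set and 577 and 1021 on another, changes of 1.40 and 0.80. TRIB3, a pseudokinase induced by ATF4 and CHOP, read 514 and 1057 (1.01), and ATF4 itself 10567 and 16684 (0.66). ASNS, asparagine synthetase and a classical target, did not share this, at 319 and 260 (-0.27), nor did DDIT4 (-0.17). Of 19 endoplasmic reticulum stress genes, 10 were above 0, 2 at least 2-fold higher (10.5%, against 4.08% of all genes) and none 2-fold lower. Their median of 0.08 turned to -0.07 with gene-specific probe sets alone. The 2 were ATF6, a sensor of unfolded proteins (1.03, with 0.59 on a second probe set), and DNAJB9 (1.11, with -0.07 on its other). Among the chaperones, HSPA5, known as BiP, changed by -0.22, HSP90B1 by -0.11, CALR, calreticulin, by 0.27 and PDIA6, a disulfide isomerase, by 0.13. MANF was lowest at -0.77.

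The amino acid response element TTGCATCA stood, on either strand, before a start of 4 of the 23 amino acid stress genes with a promoter (17.4%: AARS1, CEBPG, CHAC1 and SLC1A5), of 0.657% of compared genes and of 0.967% of all genes. CHAC1, which degrades glutathione, is shown because the element is on its own strand and its signal was higher, from 178 to 270.5 (0.55). The window is chr15:40953221-40953470 in GRCh38.p14, plus strand, with the element 209 bases before the start in capitals.
CHAC1: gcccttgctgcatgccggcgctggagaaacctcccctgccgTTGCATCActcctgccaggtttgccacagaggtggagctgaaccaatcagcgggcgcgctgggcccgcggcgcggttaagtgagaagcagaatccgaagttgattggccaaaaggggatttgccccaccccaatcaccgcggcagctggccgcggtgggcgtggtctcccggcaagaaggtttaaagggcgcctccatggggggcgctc
DDIT3 and TRIB3, both past 2-fold, did not hold these exact letters in the windows searched, which says nothing on the factor.

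The lists of caspases, NF-kB genes and the BCL2 family held genes on both sides of 0. GSDME, a gasdermin cleaved in cell death, read 9508 and 3357 (-1.50). It and CASP1 were the 2 of 15 caspase genes at least 2-fold lower (13.3%, against 5.68% of all genes). CASP6, an executioner caspase, was the 1 higher (6.67%, against 4.08%), at 364 and 794 (1.08). Of 17 NF-kB genes, 3 (17.6%, against 5.68% of all genes) were at least 2-fold lower. TNF read 131 and 11.9 (-2.10), LTB, lymphotoxin beta, 331 and 64.9 (-1.99), and ICAM1, an adhesion molecule, 164 and 35.3 (-1.65), but a second ICAM1 probe set read 1.66. The feedback genes TNFAIP3 (0.09), NFKBIA (0.10) and NFKB1 (-0.06) were level, and the list's median was -0.01, of either sign over the processing alternatives. In the BCL2 family BIK, a death effector, was at 252 and 52.6 (-1.84), BCL2L11, the effector BIM, at 98.8 and 31.3 (-1.14), PMAIP1, NOXA, at 3603 and 5601 (0.63), and BCL2 itself at 1051 and 967 (-0.12). The BCL2L11 probe set was below both SUP-B15 medians and kept only through BV-173, so its fall is uncertain. MCL1 read 1605 and 1947 (0.28), with 5 kept probe sets between -0.82 and 0.71. Of 15 p53 targets, FAS was 2-fold higher and PLK2 lower, and CDKN1A, p21, read 1131 and 1198 (0.08). MHC class II genes held none past 2-fold by the brightest probe set, with a median of -0.17 and HLA-DPB1 lowest at 2865 and 1569 (-0.86). Other kept probe sets did pass it, since HLA-DOA reached 1.35 and the 5 of HLA-DQB1 lay between -1.22 and 1.25. Of 23 interferon genes, IFI6 alone was past 2-fold, on signals of 47.4 and 136.

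Of 17 adhesion and receptor genes, 13 changed below 0, against 51.3% of all genes, with a median of -0.47. At least 2-fold lower were 5 (29.4%), against 5.68% of all genes. ITGB2, the leukocyte integrin beta chain, read 472 and 82.3 (-2.22), ITGB7 290 and 47.3 (-2.13), and ITGA6 changed by -1.79. ICAM3 and RGS16 were the others, both below an untreated signal of 160, and a second RGS16 probe set read 0.34. ICAM3, at 80.4 and 26.2, was below both SUP-B15 medians and kept only through BV-173. CXCR4, the homing receptor for CXCL12, lay the other way, at 8706 and 16389 on the brightest probe set, with changes of 0.91, 1.12 and 1.22. RGS1, which dampens such receptors, was the 1 at least 2-fold higher, at 39.9 and 167. Among 21 cytokine receptors and kinases, 3 (14.3%, against 5.68% of all genes) were at least 2-fold lower. They were TNFRSF1B (480 and 107, -1.94), IL3RA (87.7 and 19.5, -1.35) and IL21R (851 and 393, -1.07). A second IL21R probe set read -0.40. The IL3RA probe set was below both SUP-B15 medians and kept only through BV-173. IL7R, the pre-B growth receptor, read 4130 and 6299 (0.61).

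By the brightest probe set, several lists held no gene past 2-fold or 1 alone. None of 18 genes of BCR, ABL1 and their adaptors was past 2-fold, with BCR at 750 and 936 (0.31) and ABL1 at 1018 and 1247 (0.29), from probe sets that do not tell the fusion from the normal transcripts. None of 25 proteasome subunits was (median -0.15), and none of 19 heat shock and chaperonin genes (median -0.34), with HSPE1 lowest at -0.83. Of 26 lysosome genes, LAMP2 was past 2-fold, at 956 and 1957 (1.02), on 1 of 3 kept probe sets between 0.43 and 1.02. Of 7 metallothioneins, MT1H was past it, at 1900 and 5309 (1.47), while MT2A read 6614 and 6797 (0.04). Metallothionein probe sets can share sequence, so a single member is uncertain. Among 22 APOBEC3 and repair genes, UNG, the uracil glycosylase, read 270 and 135 (-0.88) and APOBEC3F, the 1 past 2-fold, 47.1 and 144. Of 11 histones, H2AC6 was at 89.5 and 476 (2.14). Matrix genes were unlike these lists, with 4 of 14 at least 2-fold lower (28.6%, against 5.68% of all genes). Of the 4, EMP1, COL6A1 and COL1A1 had untreated signals under 170, and S100A6, a calcium binding protein, read 752 and 322 (-1.16).

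**Figure D4:**
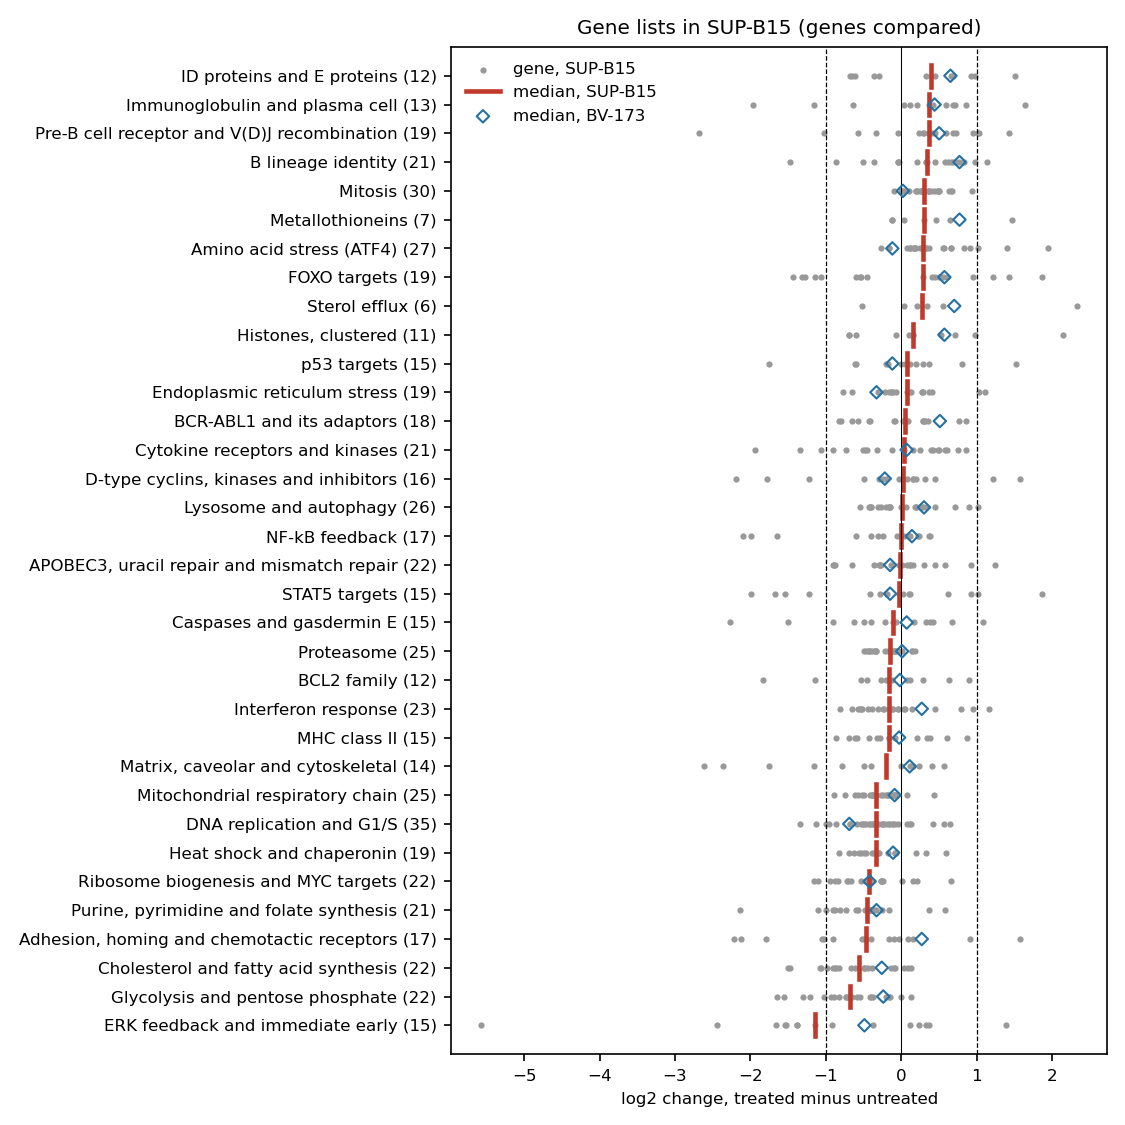
Log2 change in SUP-B15 of every compared gene (grey points) of the 34 gene lists, with the list's median in SUP-B15 (red bar) and in BV-173 (blue diamond); the number of genes is in brackets and dashed lines mark 2-fold. ERK feedback genes have the lowest SUP-B15 median, -1.14, and the glycolysis and cholesterol medians follow at -0.68 and -0.56.

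Genes outside the lists held large changes at bright signals, of which the first 7 here had 1 kept probe set each. SMAGP, a small membrane protein of epithelial contacts, read 799.6 and 90.2 (-2.84), MACROD1, an enzyme that removes ADP-ribose, 1055 and 220 (-2.14), and MRC1, the mannose receptor, 1490 and 442 (-1.70). CRISPLD2, a secreted protein, read 135 and 810.5 (2.39), and NID2, a basement membrane protein, 1533 and 4523 (1.55). P2RX5, an ATP-gated channel, was at 371 and 1131 (1.55) and PTPRK, a receptor phosphatase, at 359 and 1038 (1.47). TBC1D30, which has a Rab GTPase activating domain, was lower on 3 probe sets, by -2.55, -2.07 and -0.97, the last just short of 2-fold.

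In BV-173, 547 of the same 7916 genes (6.91%) were at least 2-fold higher and 364 (4.60%) lower, 911 (11.5%) in all. Of the SUP-B15 genes at least 2-fold higher, 62 were so in BV-173 too, 19.2% of the 323 in SUP-B15 and 11.3% of the 547 in BV-173. Of those lower, 67 were shared, 14.9% of 450 and 18.4% of 364. From the same 450, 71 (15.8%) were at least 2-fold higher in BV-173, and from the 323, 29 (8.98%) were lower there. Among bright genes, 11 higher and 14 lower ones were shared. The shared genes, 129 in all, became 27 with the median of all signals added. With 1 array per group no difference between the lines could be tested, and the values are given side by side. DUSP6 read -5.57 in SUP-B15 and -6.00 in BV-173, ETV5 -2.45 and -2.10, GSDME -1.50 and -1.67, and RAG1 1.42 and 1.89. BCL6 read 1.86 and 3.28.

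Other SUP-B15 changes had a BV-173 value near 0 or of the other sign. Within 1.2-fold of no change in BV-173 were 77 (23.8%) of the 323 higher and 88 (19.6%) of the 450 lower genes, against 41.7% of all 7916 genes. MYC read -1.54 in SUP-B15 and 0.01 in BV-173, MACROD1 -2.14 and -0.03, DHCR7 -1.50 and -0.22, GPI -1.31 and -0.11, and PFKM -1.21 and -0.23. On the higher side NID2 read 1.55 and 0.24, ZNF587 1.45 and -0.13, and DDX54, an RNA helicase, 1.43 and 0.06. CASP1 lay between -3.17 and -2.09 over its probe sets in SUP-B15 and between -0.83 and -0.48 in BV-173. TXNIP was lower on all 3 probe sets in SUP-B15 and read 0.64, 0.63 and 0.62 in BV-173. List medians differed most for adhesion genes, -0.47 in SUP-B15 and 0.27 in BV-173. For ERK feedback genes they stood at -1.14 and -0.49, and for amino acid stress at 0.29 and -0.12. For glycolysis they were -0.68 and -0.24, and for mitosis 0.30 and 0.02. Replication genes were the reverse, with -0.33 and -0.69.

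Genes past 2-fold in opposite directions numbered 100 (1.26%), of which 71 were lower and 29 higher in SUP-B15. This count moved with the treatment of dim signals, and was 0 with the median of all signals added, 4 with a filter at the 75th percentile, 17 with a filter on the mean, 64 with a filter on the SUP-B15 arrays only and 210 with 1 added before the logarithm. Only 4 of the 100 were bright in SUP-B15. CD248, a stromal and progenitor surface protein, read 700.1 and 199 in SUP-B15 and 29.8 and 162 in BV-173, changes of -1.70 and 1.78. CSGALNACT1, a chondroitin synthesis enzyme, read 1416 and 576 in SUP-B15 and 21.5 and 88.3 in BV-173, the latter both below the medians of those arrays. ANKRD36B read 316 and 683 against 111 and 38.7, and CAP2 271 and 612 against 45.9 and 3.2.

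**Figure D5:**
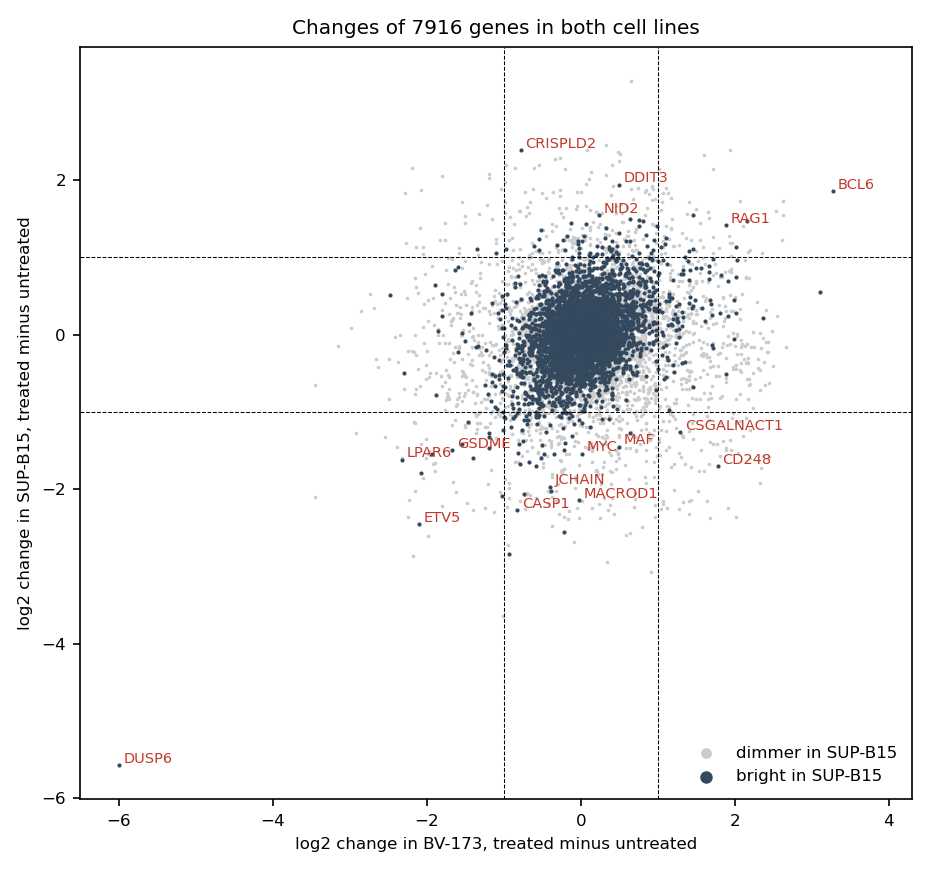
Log2 change in SUP-B15 (vertical) against that in BV-173 (horizontal) for the 7916 genes, dark points for genes bright in SUP-B15 and grey for dimmer ones, with dashed lines at 2-fold. DUSP6 is at the lower left in both lines, and 4 dark points lie past 2-fold in opposite corners.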

How the data were processed

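Total RNA of the 4 cell line samples was hybridised to 1-colour Affymetrix arrays. The deposited signal intensity per probe set was made by the authors with GCOS 1.3, per the submitters' processing notes. Neither the scaling target nor the way probes were summarised is stated there. Every array had a trimmed mean intensity of 500.2, so the authors had scaled the arrays, and a change in total RNA per cell is not visible. Gene symbols came from the platform annotation, with 19052 of 19064 probe sets matched to RefSeq (GRCh38.p14), which also gave the promoters. Probe sets with several symbols (1043) or none (2108) and 62 controls were left out, and some genes are not reported here.

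Signals were set to log2(signal + 24.5). Kept probe sets were those at or above the 50th percentile of the array in 1 or more of 4 arrays, and the brightest kept one (mean of the 4 arrays) stood for its gene. Arrays are too few for any test, and their number limits the precision. Genes were named by fixed rules: up to 12 per direction with all probe sets past 2-fold, 5 per direction with a single bright probe set, up to 4 per list by size, 8 per direction with BV-173 within 1.2-fold, 5 per direction opposite in the lines, and a chosen set. Others (IKZF2, TP53I11, CSGALNACT1, ANKRD36B, further list members) were named after their values were seen. The members and lists were chosen with earlier results of these data known. Scripts used Python 3.11.15, pandas 2.3.3 and numpy 2.4.6 and were tested on simulated data. Alternatives were the added value, array scaling, filter, probe set choice and fold threshold.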

Additional observations from a re-analysis of the deposited data

Results flagged for a closer look

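Named genes at least 2-fold in opposite directions in the lines are given here as SUP-B15 change, then BV-173 change. The difference was not tested for any of them, since each group was 1 array.

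Lower in SUP-B15 and higher in BV-173 were CD248 (-1.70 and 1.78), COL6A1 (-2.36 and 2.02), COL1A1 (-1.76 and 1.60), CEACAM6 (-1.73 and 2.34), PAGE4 (-1.92 and 2.32), HPGD (-2.38 and 1.67), C19orf73 (-2.24 and 1.91), IL3RA (-1.35 and 1.01), KLF2 (-1.32 and 1.32) and EGR1 (-1.14 and 1.81). CD248 was the bright one among these. PAGE4 and IL3RA were below the median of both SUP-B15 arrays and were kept only through treated BV-173. The BV-173 signal that admitted them is part of the BV-173 change shown. EGR1, an immediate early factor, had a second probe set at -1.15 in SUP-B15 and -1.83 in BV-173, so its BV-173 direction was not shared by its probe sets.

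Higher in SUP-B15 and lower in BV-173 were CAP2 (1.11 and -1.35), BLK (1.03 and -1.34), APOBEC3F (1.24 and -1.10), SPRY4 (1.38 and -2.09), ADAP2 (1.83 and -2.29), IQCC (2.15 and -2.19), KLHL28 (2.05 and -1.81) and SERPINB13 (1.87 and -2.08). CAP2 was the bright one among these, and its second probe set read 1.49 in SUP-B15 and 0.10 in BV-173. SPRY4, ADAP2, KLHL28 and SERPINB13 were below the median of both SUP-B15 arrays and were kept only through untreated BV-173. For these genes too, the signal that admitted them is part of the BV-173 change shown.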

How the results depend on the processing

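No paired analysis was possible because each group was 1 array and the labels give no replicate numbers, and no array could be left out. The counts depended most on how dim signals were treated. Genes at least 2-fold higher and lower, 323 and 450, became 78 and 139 with the median of all signals (106.2) added, 696 and 1031 without a filter, 76 and 105 with a filter at the 75th percentile, and 146 and 193 with a filter on the mean. Gene-specific probe sets gave 279 lower. A threshold of 1.5-fold gave 934 and 1129, and 3-fold 86 and 154. Genes with all probe sets past 2-fold, 16 higher and 22 lower, became 3 and 11 with the median added, 7 and 14 with the stricter filter, 3 and 5 with gene-specific probe sets, and 26 and 8 higher without a filter and with the filter on the mean. The share of SUP-B15 genes that passed 2-fold the same way in BV-173, 16.7% of 773, was 12.4% with the median added and 22.7% with 1 added. Of 112 named genes past 2-fold, 66 were past it the same way under each of the 11 alternatives to the signal, filter and probe set in which they had a value, and 4 turned: DNAJB9 (-0.07, gene-specific probe sets), DRD2 (-0.46, no filter), SERPINB13 (-0.34, no filter) and ICAM1 (0.00, mean or median of probe sets). The cause was not tested. Of 34 list medians, 11 turned sign under some alternative, and those of the ERK, glycolysis, cholesterol, ribosome, replication, mitosis and amino acid stress lists did not.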

Other observations

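Probe sets with no gene symbol or several were not part of the gene comparison. Of the 898 kept ones with none, 51 were at least 2-fold higher and 55 lower in SUP-B15 (11.8% in all), and of the 692 kept ones with several, 32 and 36 (9.83%), beside 9.73% of the 11818 kept ones with 1 symbol.

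TP53I11, a p53-induced gene, was lower on both kept probe sets in SUP-B15 (-1.56 and -1.21) and higher on both in BV-173 (1.03 and 1.17). Its signals were dim, at 108 untreated and 20.4 treated in SUP-B15 and 48.8 and 126 in BV-173 on the brightest probe set. The difference was not tested, and the gene was singled out after its values were seen.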
